A study of Mus musculus with 12 samples.

Results

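Complement and coagulation factors are the plasma proteins that mark foreign or damaged surfaces and that make and dissolve clots, and their transcripts were measured here in mouse liver. Of 35 genes named for the group, 32 were each found as the only gene of a probe set and were measured, among 18193 genes in all. They comprise 16 of 18 named complement genes and 16 of 17 named coagulation genes. Where a gene had several probe sets, the one with the highest mean over the 12 arrays stood for it. C3, C4b and Cpb2 had no probe set of their own in the annotation used and were not analysed here as single genes.

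The livers came from male mice, given either the synthetic triterpenoid CDDO-Im at 30 uM/kg or vehicle by gavage, and were taken after 6 hours. CDDO-Im is known to activate Nrf2, the transcription factor encoded by Nfe2l2, which turns on antioxidant and detoxification genes such as Nqo1. The 4 groups of 3 arrays were Nrf2 null with CDDO-Im, Nrf2 null with vehicle, wild type with CDDO-Im, and wild type with vehicle. Age, strain and the design of the null allele are not given in the labels. The labels do not say that the arrays of a group came from separate animals, so p-values here measure only the spread between these samples. Each of the 6 vehicle titles, and no CDDO-Im title, ends in "(2)", so whatever that ending stands for cannot be told apart from the compound.

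Hepatocytes secrete most of these proteins into blood. In the complement cascade, mannose-binding lectins or antibody trigger proteases that cleave C4, C2 and C3, after which C5 to C9 assemble a pore in the target membrane. In coagulation, factor VII or the contact system starts a chain of serine proteases that ends in thrombin and fibrin, held in check by protein C, protein S and inhibitors of the serpin family, and plasmin dissolves the clot. Transcription of these genes in liver is known to rest on hepatocyte factors of the HNF and C/EBP families and, for the acute phase genes among them, on IL-6 signalling through STAT3.

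All values are RMA signals on a log2 scale, so that a difference of 1 is a doubling of signal, and a level is not compared between genes because probe sets differ in brightness. Nfe2l2 averaged 4.89 ± 0.10 and 4.71 ± 0.24 on Nrf2 null CDDO-Im and vehicle arrays, against 8.73 ± 0.39 and 8.60 ± 0.09 on wild type CDDO-Im and vehicle arrays (SD, n = 3 each). Nqo1 differed between CDDO-Im and vehicle by 0.04 in Nrf2 null livers (adjusted p = 0.842) and by 2.07 in wild type livers (adjusted p = 7.28e-08). Of 8 hepatocyte markers 7 were measured, with summed signals of 84828 to 98152 on the linear scale over the 12 arrays, and none changed with CDDO-Im; Ass1 among them averaged 4.27, below the median of every array. Of 14 markers of pancreatic acinar cells 11 were measured, and their signals summed to 15073 on wild type vehicle replicate 3 and 4878 on Nrf2 null vehicle replicate 2, against 750 to 892 on the other arrays. Values without those 2 arrays are given where a member's call differs. Markers of 8 other cell types were measured too. Of 8 neutrophil markers S100a8 (−1.27, adjusted p = 0.0110) and S100a9 (−0.95, adjusted p = 0.0276) fell with CDDO-Im in Nrf2 null livers, where the list summed to 817 to 859 with CDDO-Im and 873 to 1030 with vehicle. Of 6 cholangiocyte markers Tspan8 fell there (−0.68, adjusted p = 0.0276), with sums of 714 to 774 against 804 to 952. Of 10 sinusoidal endothelial markers Oit3 rose in Nrf2 null (0.63, adjusted p = 0.0110) and wild type livers (0.51, adjusted p = 0.0332) and Lyve1 in wild type livers (2.26, adjusted p = 0.00130). Apart from Oit3 and Lyve1, differences of this list in wild type livers ran from −0.66 to 0.06, all but the highest negative, and none was called. The mean of Lyve1 over the 12 arrays lay below the median of every array. The 10 markers summed to 4375 to 4868 with CDDO-Im and 3371 to 5222 with vehicle in Nrf2 null livers. In wild type livers they summed to 3361 to 3831 with CDDO-Im and 3480 to 5187 with vehicle. With CDDO-Im given, Lyve1 (−1.92, adjusted p = 0.00412) and the Kupffer cell marker Marco (−1.32, adjusted p = 0.0307) were lower in Nrf2 null than in wild type livers. The 11 Kupffer markers summed to 5628 to 6251 with CDDO-Im and 3292 to 6177 with vehicle in Nrf2 null livers, and 5497 to 8108 against 4300 to 8712 in wild type livers. No marker of stellate cells, platelets, erythroid cells or adipocytes was called in any comparison. The part of pancreatic tissue or of these other cell types in the results below was not tested.

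Promoter sequences are shown for 5 members on which the CDDO-Im results turn: C4bp, C8a, C8b and Serpinf2, which fell in wild type livers, and Mbl2, which rose in Nrf2 null livers. Each runs 5′ to 3′ over 300 bases, from 250 bases before to 50 after the gene's start in RefSeq (GRCm38.p6), on the strand of the gene. Capitals mark matches to any of the motifs listed after the sequences.
C4bp, chr1:130661569-130661868, minus strand: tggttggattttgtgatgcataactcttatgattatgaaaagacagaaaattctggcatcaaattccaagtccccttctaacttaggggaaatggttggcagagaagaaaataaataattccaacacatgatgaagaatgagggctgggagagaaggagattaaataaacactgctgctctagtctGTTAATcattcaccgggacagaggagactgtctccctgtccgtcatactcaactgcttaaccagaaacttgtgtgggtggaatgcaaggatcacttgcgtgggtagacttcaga
C8a, chr4:104876349-104876648, minus strand: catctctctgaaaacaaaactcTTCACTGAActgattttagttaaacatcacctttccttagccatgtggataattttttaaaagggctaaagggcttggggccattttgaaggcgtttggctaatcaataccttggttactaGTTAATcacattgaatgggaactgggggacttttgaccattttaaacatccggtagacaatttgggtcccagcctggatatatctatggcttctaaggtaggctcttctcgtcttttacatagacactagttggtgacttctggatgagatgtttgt
C8b, chr4:104766067-104766366, plus strand: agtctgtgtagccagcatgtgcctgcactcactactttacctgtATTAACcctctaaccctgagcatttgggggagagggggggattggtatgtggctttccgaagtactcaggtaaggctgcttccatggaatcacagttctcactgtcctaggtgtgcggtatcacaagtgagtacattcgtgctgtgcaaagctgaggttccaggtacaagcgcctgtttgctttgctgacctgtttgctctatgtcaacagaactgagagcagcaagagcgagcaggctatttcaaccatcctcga
Serpinf2, chr11:75439452-75439751, minus strand: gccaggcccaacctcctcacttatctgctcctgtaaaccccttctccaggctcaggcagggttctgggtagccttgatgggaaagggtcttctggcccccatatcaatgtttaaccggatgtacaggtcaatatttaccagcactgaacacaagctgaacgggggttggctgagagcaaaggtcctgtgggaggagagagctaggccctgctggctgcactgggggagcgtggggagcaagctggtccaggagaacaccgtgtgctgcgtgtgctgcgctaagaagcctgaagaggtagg
Mbl2, chr19:30232678-30232977, plus strand: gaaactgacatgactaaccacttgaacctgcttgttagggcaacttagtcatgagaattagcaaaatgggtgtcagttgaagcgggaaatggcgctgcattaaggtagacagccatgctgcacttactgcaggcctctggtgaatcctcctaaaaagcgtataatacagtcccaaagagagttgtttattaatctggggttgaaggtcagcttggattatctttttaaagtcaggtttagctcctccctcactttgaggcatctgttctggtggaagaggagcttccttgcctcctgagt

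On either strand of those windows, 8 short motifs were searched: TTGCNNAA (C/EBP), TTCNNNGAA (STAT), the full palindromic HNF1 motif, its left arm GTTAAT, CAAAGTCCA (HNF4), the NF-kB motif, TGACNNNGC (the antioxidant response element that Nrf2 binds) and the TATA box. The arm lies within the longer HNF1 motif. RefSeq windows were at hand for 24 of the 32 members, as 25 windows. The arm was found in 7 of the 25 (28%, against 7.10% of all 32851 windows): those of C4bp, C8a, C8b, F13b, F2, Hc and Vtn. In C4bp it begins 64 bases before the start, and in C8a 107 bases before it. C8a also holds a match to the STAT letters 228 bases before its start. C8b, which lies next to C8a on chromosome 4 with 0 annotated genes between, holds the arm on its other strand 206 bases before its start.

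The STAT letters were found in 5 of 25 member windows (20%, against 8.30% of all windows), those of C8a, F9, Masp2, Pros1 and Vtn. The C/EBP letters were in 5 as well (20%, against 10.8%), those of C9, F11, F9, Klkb1 and Serpinc1. The antioxidant response element was in 3 (12%, against 12.4%), those of Klkb1, Mbl1 and Serpind1, and the TATA box was in 3 (12%, against 13.6%). No member window held the full HNF1 motif, the HNF4 letters or the NF-kB letters, which were in 0.00913%, 0.475% and 1.63% of all windows. None of the motifs was found in the windows of Serpinf2 and Mbl2. A match is a description of letters and not of a bound site.

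In wild type livers CDDO-Im lowered 8 of the 32 members and raised none at an adjusted p under 0.05, against 1.82% of all genes called in either direction, 0.978% called higher and 0.846% called lower. The 8 were the lectin-pathway protease Masp1, the C4b-binding protein C4bp, factor B (Cfb), the C8 chains C8a and C8b, factor XI (F11), kininogen (Kng1) and α2-antiplasmin (Serpinf2). In all 23 of the 32 differences were negative, and the median was −0.20, against 0.01 over all genes. All 3 CDDO-Im arrays lay below all 3 vehicle arrays for 16 members (8.18% of all genes) and above them for 3 (8.42%), together against 16.6% of all genes. At an unadjusted p under 0.05 there were 18 members, against 13.6% of all genes. The members' probe sets were brighter than most, with a median signal of 11.67 against 6.66 over all genes. The shares over all genes thus include many dimmer genes. When only the 9096 genes above the median level were fitted, 400 were called in wild type livers, 8 of them members. In a bulk liver sample, fewer cells of a type and less RNA per cell cannot be told apart.

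In Nrf2 null livers the calls went both ways: CDDO-Im raised 6 members and lowered 3, against 5.90% of all genes called in either direction, 3.58% higher and 2.32% lower. Mannose-binding lectin C (Mbl2), the C8 gamma chain (C8g), factor VII (F7), protein C (Proc), plasma prekallikrein (Klkb1) and heparin cofactor II (Serpind1) rose. C4bp, protein S (Pros1) and Kng1 fell. The split was 5 higher and 6 lower when the arrays were quantile normalized again. The median difference was 0.05, against −0.01 over all genes, and the arrays did not overlap for 11 members above (11.6% of all genes) and 8 below (11.4%), together against 23.1%. At an unadjusted p under 0.05 there were 18 members, against 19.4% of all genes. C4bp and Kng1 were called lower in both genotypes, and no member was called in opposite directions. When only the 9096 genes above the median level were fitted, 1177 were called in Nrf2 null livers, 12 of them members (8 higher, 4 lower).

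**Figure D1:**
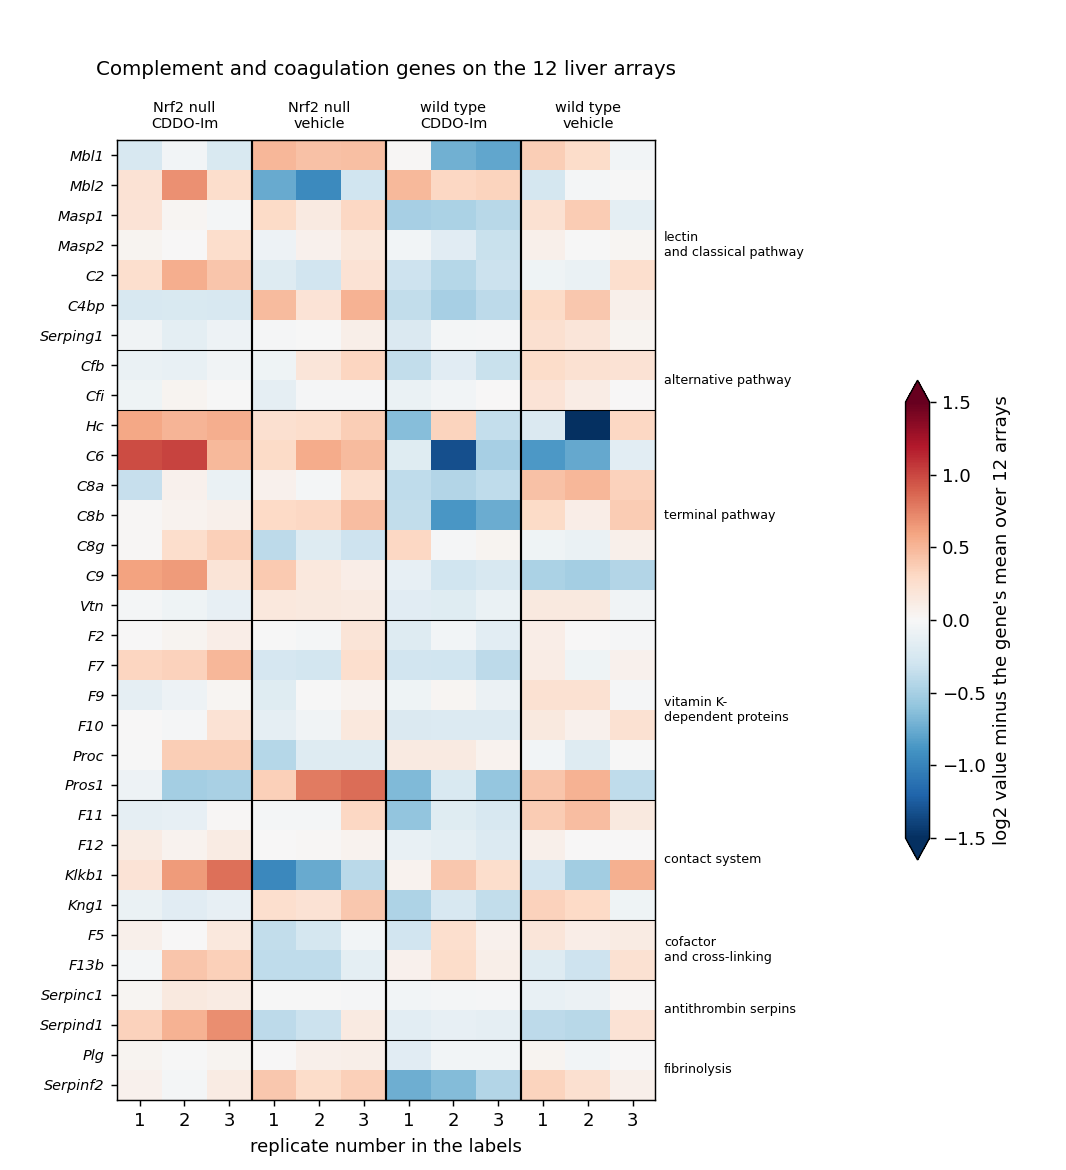
Signal of each of the 32 members on each of the 12 arrays, as the deviation in log2 units from that gene's mean over all arrays (colour), with genes in rows ordered by role and arrays in columns ordered by group. The wild type CDDO-Im arrays have member medians of −0.22 to −0.17, and the other 9 arrays have medians of −0.01 to 0.16.

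Among the proteins of the lectin and classical routes of complement, inhibitors included, 7 were measured. C4bp, a soluble inhibitor that binds C4b, was the 1 member of them called lower in both genotypes. Mbl1, Masp1 and Serping1 also had negative differences in both, without a call in both. C4bp read 11.72, 11.73 and 11.72 on CDDO-Im arrays against 12.44, 12.16 and 12.48 on vehicle arrays of Nrf2 null livers. On wild type arrays C4bp read 11.59, 11.46 and 11.56 with CDDO-Im against 12.25, 12.37 and 12.04 with vehicle. No CDDO-Im array reached any vehicle array in either genotype. The differences were −0.64 ± 0.10 in Nrf2 null livers (SE, adjusted p = 0.00958) and −0.68 ± 0.10 in wild type livers (adjusted p = 0.00546), or 1.56-fold and 1.60-fold lower, and both calls stood under all 23 alternative settings.

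Mbl2, a lectin that recognises sugars on microbes, read 11.78, 12.24 and 11.83 on Nrf2 null CDDO-Im arrays and 10.80, 10.61 and 11.26 on Nrf2 null vehicle arrays. In wild type livers it read 12.05, 11.87 and 11.90 with CDDO-Im and 11.30, 11.54 and 11.56 with vehicle. All CDDO-Im arrays were thus above all vehicle arrays in both genotypes. The difference passed the test in Nrf2 null livers, at 1.06 ± 0.16 (adjusted p = 0.00847, 2.09-fold higher), under all 23 alternatives as well, and was 0.47 ± 0.16 in wild type livers (adjusted p = 0.190). The second mouse lectin of the family, Mbl1, had differences of the other sign, −0.64 (adjusted p = 0.0607) in Nrf2 null and −0.70 (adjusted p = 0.0799) in wild type livers, and passed in neither. Without wild type vehicle replicate 3 and Nrf2 null vehicle replicate 2, the arrays with acinar transcripts, Mbl1 was called lower in wild type livers, at −0.82.

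Masp1, a protease carried by the lectins, read 10.09, 10.12 and 10.17 in wild type livers with CDDO-Im and 10.81, 10.97 and 10.44 with vehicle. The groups were apart, with vehicle replicate 3 the nearest. The difference was −0.61 ± 0.12 (adjusted p = 0.0248). Its 4 other probe sets differed by −0.27 to 0.01 and none was called, and the adjusted p was up to 0.136 when an array was left out, without wild type vehicle replicate 1. In Nrf2 null livers Masp1 differed by −0.17 (adjusted p = 0.492). The related protease Masp2 differed by 0.05 in Nrf2 null livers (adjusted p = 0.852) and by −0.21 in wild type livers (adjusted p = 0.375).

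C2, the protease part of the classical and lectin C3 convertase, went to opposite sides in the genotypes, and the probe set used passed the test in neither. Its Nrf2 null CDDO-Im arrays read 9.95, 10.26 and 10.12, and the vehicle arrays 9.51, 9.42 and 9.93. Its wild type CDDO-Im arrays read 9.39, 9.28 and 9.39, and the vehicle arrays 9.64, 9.60 and 9.96. CDDO-Im arrays were all above vehicle in the null livers and all below it in the wild type livers. The differences were 0.49 ± 0.14 (adjusted p = 0.0568) in Nrf2 null and −0.38 ± 0.14 (adjusted p = 0.213) in wild type livers, and both other C2 probe sets had the same signs. When every probe set was tested, 1 of those 2 passed in Nrf2 null livers, at 0.69 (adjusted p = 0.0395), and the second differed there by 0.68 (adjusted p = 0.0507). Serping1, the inhibitor of C1 and of kallikrein, differed by −0.12 in Nrf2 null livers (adjusted p = 0.471) and by −0.24 in wild type livers (adjusted p = 0.166).

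Cfb, the protease of the alternative pathway convertase and a neighbour of C2 on chromosome 17, read 11.68, 11.88 and 11.72 on wild type CDDO-Im arrays against 12.33, 12.28 and 12.27 on vehicle arrays. The 3 vehicle arrays were close together and well above all CDDO-Im arrays. The difference was −0.53 ± 0.09 (adjusted p = 0.0148, 1.45-fold lower). In Nrf2 null livers it was −0.23 ± 0.09 (adjusted p = 0.190), with overlapping arrays. Cfi, the protease that inactivates C3b and C4b, differed by 0.05 in Nrf2 null and by −0.15 in wild type livers and passed in neither (adjusted p = 0.776 and 0.395). A probe set shared by C4a and C4b, and so assigned to neither gene alone, differed by 0.04 in Nrf2 null livers (adjusted p = 0.905) and by −0.24 in wild type livers (adjusted p = 0.421).

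Of 7 members of the terminal pathway, which forms the membrane pore, C8a and C8b fell in wild type livers. C8a read 11.59, 11.54 and 11.60 on wild type CDDO-Im arrays and 12.42, 12.47 and 12.32 on vehicle arrays. C8b read 10.82, 10.31 and 10.43 with CDDO-Im and 11.47, 11.27 and 11.55 with vehicle. For both genes all CDDO-Im arrays lay below all vehicle arrays. C8a differed by −0.83 ± 0.11 (adjusted p = 0.00175, 1.78-fold lower) and C8b by −0.91 ± 0.12 (adjusted p = 0.00213, 1.88-fold lower). The C8a call stood under all 23 alternatives and that of C8b under 22, with only the arrays compared as the exception.

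Nrf2 null arrays of the 2 genes showed smaller differences. C8a read 11.63, 12.04 and 11.87 with CDDO-Im and 12.04, 11.95 and 12.23 with vehicle, and the groups overlapped (−0.23 ± 0.11, adjusted p = 0.262). C8b read 11.20, 11.23 and 11.25 with CDDO-Im and 11.48, 11.49 and 11.64 with vehicle, with no overlap (−0.31 ± 0.12, adjusted p = 0.168). The remaining chain, C8g, which belongs to the lipocalin family and binds to the alpha chain, did not follow them. It read 12.28, 12.52 and 12.62 on Nrf2 null CDDO-Im arrays against 11.87, 12.07 and 11.95 on vehicle arrays, all above, and rose by 0.51 ± 0.11 (adjusted p = 0.0217). In wild type livers C8g differed by 0.14 ± 0.11 (adjusted p = 0.665).

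C9, whose copies line the pore, differed by 0.27 in Nrf2 null and 0.26 in wild type livers (adjusted p = 0.234 and 0.361). C6, which joins the complex after C5b, differed by 0.38 and −0.07 in Nrf2 null and wild type livers (adjusted p = 0.498 and 0.960). Hc, the gene of C5, had the largest spread within groups of the 32 members, a pooled SD of 0.65 at percentile 99.4 of all genes. It read 12.28, 12.21 and 12.24 on Nrf2 null CDDO-Im arrays and 11.95, 11.97 and 12.08 on Nrf2 null vehicle arrays. In wild type livers Hc read 11.06, 12.04 and 11.34 with CDDO-Im and 11.49, 9.74 and 12.01 with vehicle. The spread sat in the wild type arrays, vehicle replicate 2 being the lowest of all 12. Its CDDO-Im differences were 0.25 ± 0.44 in Nrf2 null and 0.40 ± 0.44 in wild type livers. Vtn, vitronectin, an inhibitor of pore insertion, differed by −0.22 in Nrf2 null and −0.23 in wild type livers (adjusted p = 0.0980 and 0.145), and without both arrays that carried acinar transcripts it was called lower in wild type livers, at −0.30 (adjusted p = 0.0388).

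**Figure D2:**
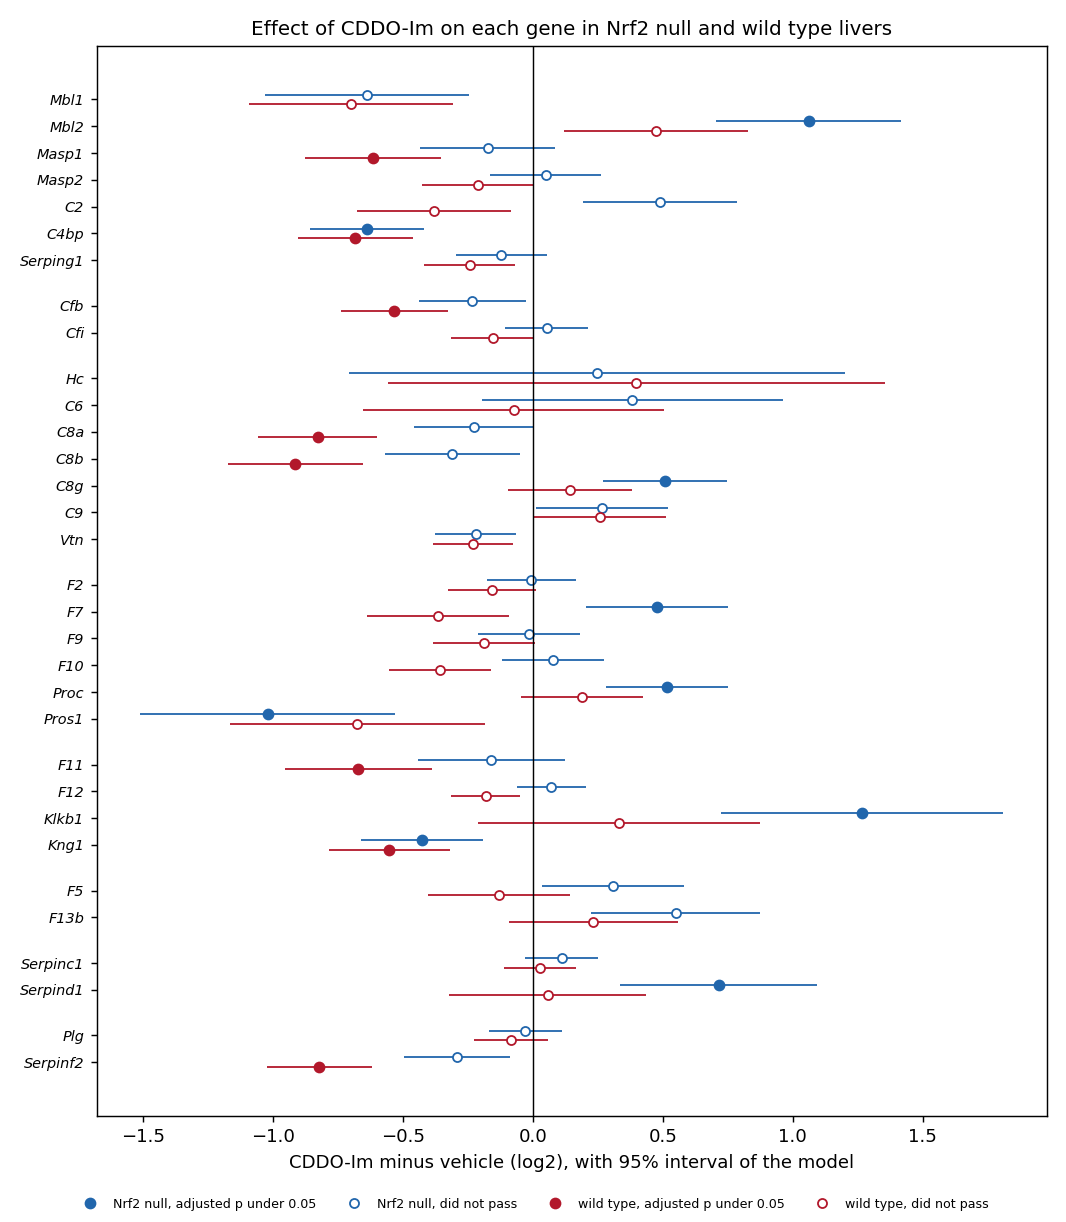
Difference between CDDO-Im and vehicle on the log2 scale for each of the 32 members, in Nrf2 null livers (blue) and wild type livers (red), with the 95% interval of the limma model and filled points where the adjusted p was under 0.05. All 8 filled wild type points lie left of 0, at −0.91 to −0.53, and the 9 filled Nrf2 null points lie on both sides, 6 right and 3 left.

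Factors whose activation needs vitamin K-dependent carboxylation were 6 of the 32. F7, which starts coagulation together with tissue factor, read 10.68, 10.70 and 10.85 on Nrf2 null CDDO-Im arrays and 10.10, 10.08 and 10.61 on vehicle arrays. Wild type arrays of F7 read 10.07, 10.06 and 9.97 with CDDO-Im and 10.47, 10.29 and 10.42 with vehicle. As with C2, CDDO-Im arrays were all above vehicle in Nrf2 null livers and all below it in wild type livers. The rise in Nrf2 null livers was 0.48 ± 0.12 (adjusted p = 0.0454), and it kept its call in 7 of 23 alternatives, with an adjusted p of up to 0.170 when Nrf2 null vehicle replicate 1 was left out. Without both arrays that carried acinar transcripts the rise was 0.39 and not called (adjusted p = 0.142). The wild type difference was −0.36 ± 0.12 (adjusted p = 0.190). F10, the factor that cuts prothrombin and the neighbour of F7 on chromosome 8 with 0 annotated genes between, differed by 0.08 in Nrf2 null (adjusted p = 0.720) and by −0.36 in wild type livers (adjusted p = 0.0735), where its arrays did not overlap.

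Both vitamin K-dependent anticoagulants of the group moved in Nrf2 null livers, in opposite directions. Proc, the zymogen of the protease that inactivates factors V and VIII, read 11.87, 12.25 and 12.25 with CDDO-Im against 11.45, 11.68 and 11.69 with vehicle. Pros1, its cofactor, read 8.30, 7.87 and 7.89 with CDDO-Im against 8.74, 9.17 and 9.22 with vehicle. All CDDO-Im arrays were above vehicle for Proc and below it for Pros1. Proc rose by 0.52 ± 0.11 (adjusted p = 0.0196) and Pros1 fell by 1.02 ± 0.23 (adjusted p = 0.0243, 2.03-fold lower). In wild type livers Pros1 read 7.72, 8.15 and 7.80 with CDDO-Im and 8.79, 8.91 and 8.0045 with vehicle, so that vehicle replicate 3 lay among the CDDO-Im arrays. That difference was −0.68 ± 0.23 (adjusted p = 0.177), and without both arrays that carried acinar transcripts it was called, at −0.96. Proc differed by 0.19 in wild type livers (adjusted p = 0.504).

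Prothrombin, encoded by F2, and factor IX, encoded by F9, moved little. F2 differed by −0.01 in Nrf2 null and −0.16 in wild type livers (adjusted p = 0.985 and 0.424). F9 differed by −0.01 in Nrf2 null and −0.19 in wild type livers (adjusted p = 0.960 and 0.396). Their standard errors were 0.08 and 0.09.

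In the contact system, which starts clotting on charged surfaces and releases bradykinin, Kng1, the bradykinin precursor, fell in both genotypes on the probe set used. It read 12.95, 12.88 and 12.94 on Nrf2 null CDDO-Im arrays and 13.31, 13.28 and 13.46 on vehicle arrays. Wild type livers read 12.60, 12.82 and 12.69 with CDDO-Im and 13.41, 13.36 and 12.996 with vehicle. No arrays overlapped, and wild type vehicle replicate 3 was the lowest vehicle array. Kng1 fell by 0.43 ± 0.11 in Nrf2 null (adjusted p = 0.0399) and by 0.55 ± 0.11 in wild type livers (adjusted p = 0.0248). A second Kng1 probe set differed by 0.06 (adjusted p = 0.836) and −0.19 (adjusted p = 0.531) in Nrf2 null and wild type livers, and signal may be shared with the near copy Kng2, so the Kng1 result is uncertain.

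Klkb1, the protease that frees bradykinin from kininogen, had the largest rise among the members. It read 10.32, 10.76 and 10.94 on Nrf2 null CDDO-Im arrays against 9.15, 9.36 and 9.70 on vehicle arrays. Wild type livers read 10.16, 10.52 and 10.38 with CDDO-Im against 9.83, 9.59 and 10.65 with vehicle. The Nrf2 null groups were apart, and the wild type groups overlapped through vehicle replicate 3. Klkb1 rose by 1.27 ± 0.25 in Nrf2 null livers (adjusted p = 0.0165, 2.41-fold higher) and differed by 0.33 ± 0.25 in wild type livers (adjusted p = 0.653).

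F11, next to Klkb1 on chromosome 8 with 0 annotated genes between and its homologue, went the other way. It read 8.25, 8.66 and 8.60 on wild type CDDO-Im arrays and 9.22, 9.31 and 8.99 on vehicle arrays, with no overlap, and fell by 0.67 ± 0.13 (adjusted p = 0.0244). In Nrf2 null livers F11 differed by −0.16 (adjusted p = 0.576). F12, the factor that begins contact activation, differed by 0.07 in Nrf2 null and −0.18 in wild type livers (adjusted p = 0.606 and 0.181), with a standard error of 0.06. Its wild type CDDO-Im arrays all lay below vehicle.

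The cofactor F5 differed by 0.31 ± 0.12 in Nrf2 null livers (adjusted p = 0.192), with all CDDO-Im arrays above vehicle, and by −0.13 ± 0.12 in wild type livers (adjusted p = 0.759). F13b, the carrier subunit of the enzyme that cross-links fibrin, differed by 0.55 ± 0.15 in Nrf2 null livers (adjusted p = 0.0527) and by 0.23 ± 0.15 in wild type livers (adjusted p = 0.578). Of the serpins that block thrombin, Serpind1 read 11.59, 11.76 and 11.93 on Nrf2 null CDDO-Im arrays and 10.84, 10.92 and 11.38 on vehicle arrays. Its wild type arrays read 11.09, 11.12 and 11.11 with CDDO-Im and 10.85, 10.83 and 11.46 with vehicle. The Nrf2 null groups did not overlap, whereas wild type vehicle replicate 3 lay above the wild type CDDO-Im arrays. Serpind1 rose by 0.71 ± 0.17 in Nrf2 null livers (adjusted p = 0.0352) and differed by 0.06 in wild type livers (adjusted p = 0.95). Serpinc1, antithrombin, differed by 0.11 in Nrf2 null and 0.03 in wild type livers (adjusted p = 0.391 and 0.928).

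In fibrinolysis, Serpinf2, the main inhibitor of plasmin, had the smallest adjusted p of all members in any comparison. It read 12.47, 12.39 and 12.54 on Nrf2 null CDDO-Im arrays and 12.81, 12.69 and 12.77 on vehicle arrays. Wild type livers read 11.69, 11.77 and 11.97 with CDDO-Im and 12.75, 12.65 and 12.49 with vehicle. CDDO-Im arrays lay below vehicle arrays in both genotypes, by the wider gap in wild type. Serpinf2 fell by 0.82 ± 0.09 in wild type livers (adjusted p = 0.00067, 1.77-fold lower), under all 23 alternatives, and differed by −0.29 ± 0.09 in Nrf2 null livers (adjusted p = 0.0926). Plg, plasminogen, the precursor of plasmin, differed by −0.03 in Nrf2 null and −0.08 in wild type livers (adjusted p = 0.875 and 0.673).

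Single arrays decided several of these calls. In wild type livers Masp1, Cfb, F11 and Kng1 were each no longer called without vehicle replicate 1 or 2 or CDDO-Im replicate 1 or 3, and Masp1 also without CDDO-Im replicate 2. The highest adjusted p-values were 0.136 for Masp1, 0.0866 for Cfb, 0.126 for F11 and 0.138 for Kng1, all without vehicle replicate 1. In Nrf2 null livers C8g, F7, Proc, Pros1, Klkb1, Kng1 and Serpind1 were each no longer called without Nrf2 null CDDO-Im replicate 2, and likewise without replicate 3. Without replicate 3 the adjusted p was 0.0993 for C8g, 0.0891 for Proc, 0.0997 for Pros1, 0.0759 for Klkb1 and 0.138 for Serpind1. Kng1 reached 0.120 without replicate 2. Nrf2 null vehicle replicate 1 also decided the calls of C8g, F7, Proc, Klkb1, Kng1 and Serpind1, and vehicle replicate 2 those of F7, Proc, Pros1, Klkb1, Kng1 and Serpind1. Some Nrf2 null calls were also lost without wild type arrays, which enter through the shared spread. F7 lost its call without wild type vehicle replicate 1 or 2 or any wild type CDDO-Im array. Serpind1 lost it without wild type CDDO-Im replicate 2 or 3, and Kng1 without wild type CDDO-Im replicate 3.

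**Figure D3:**
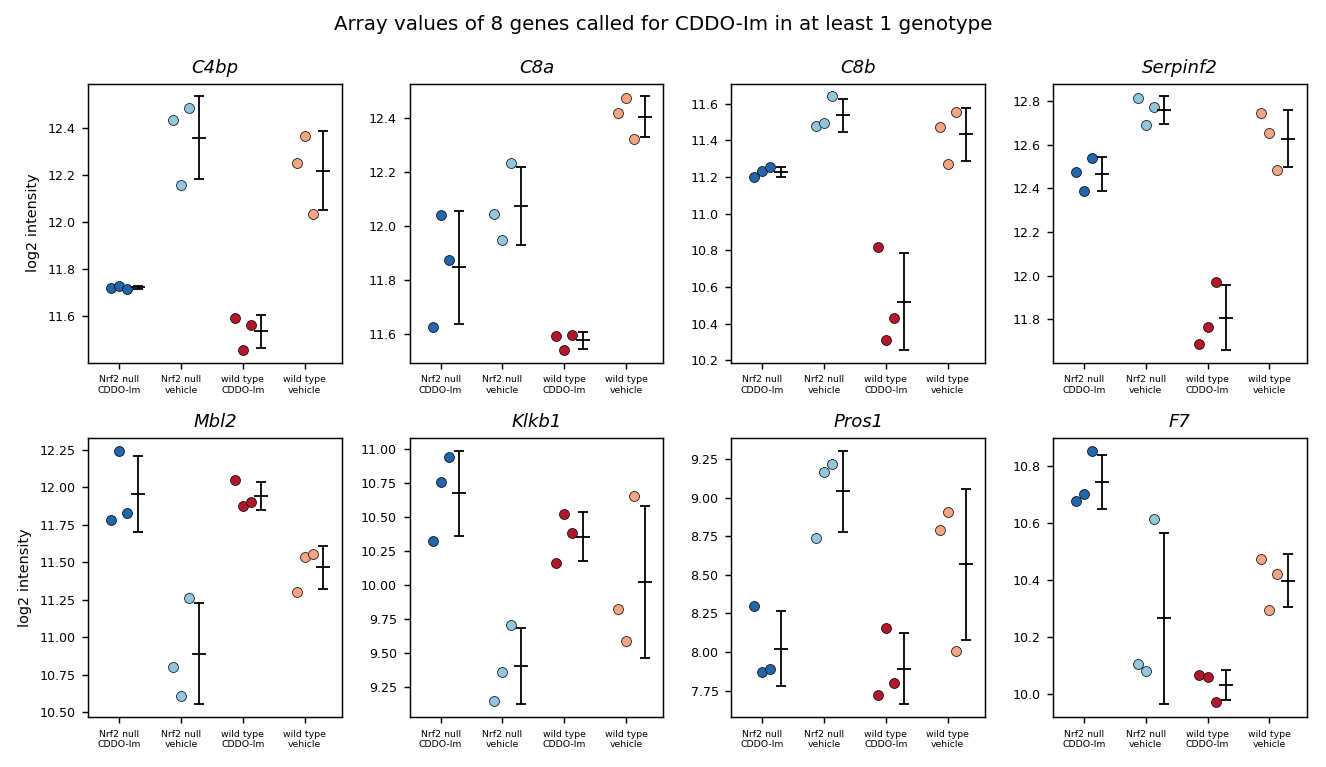
Log2 signal on each array (points) for members called in a CDDO-Im comparison, with the mean and SD of each group of 3 arrays, CDDO-Im left of vehicle within each genotype. C4bp is lower with CDDO-Im in both genotypes, C8a, C8b and Serpinf2 have their widest gap in wild type livers, and Mbl2 and Klkb1 have theirs in Nrf2 null livers.

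Under vehicle, genotype changed 1 of the 32 members, against 0.390% of all genes called in either direction, 0.115% higher and 0.275% lower. C9 read 12.75, 12.52 and 12.46 on Nrf2 null vehicle arrays and 11.89, 11.85 and 11.93 on wild type vehicle arrays. All null arrays were above, and the difference was 0.69 ± 0.12 (adjusted p = 0.0338, 1.61-fold higher). The call was lost without any 1 of 5 arrays (wild type vehicle replicates 1 and 2, wild type CDDO-Im replicate 3, Nrf2 null vehicle replicates 1 and 2), with an adjusted p of up to 0.154. Without both arrays that carried acinar transcripts the difference was 0.74 and not called (adjusted p = 0.0668). The members' differences ran from −0.62 to 1.04, and the arrays did not overlap for 3 members above (8.55% of all genes) and 5 below (8.49%), together against 17.0%. At an unadjusted p under 0.05 there were 8 members, against 13.2% of all genes.

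With CDDO-Im given, 6 members were higher in Nrf2 null than in wild type livers and none was lower, against 1.45% of all genes called in either direction, 0.621% called higher and 0.824% called lower. They were C2, C6, C8b, C9, F7 and Serpinf2. In all 30 of 32 differences were positive, with a median of 0.24 against 0.01 over all genes. The arrays did not overlap for 20 members, all with the Nrf2 null arrays above (9.01% of all genes), and for none below (7.82%), together against 16.8%. At an unadjusted p under 0.05 there were 13 members, against 11.3% of all genes. Without both arrays that carried acinar transcripts, which are vehicle arrays and enter here through the shared spread, Masp1 (adjusted p = 0.00704) and Serpind1 (adjusted p = 0.0259) were called higher as well. The wild type CDDO-Im arrays enter both this comparison and the CDDO-Im effect in wild type livers. When only the 9096 genes above the median level were fitted, 250 were called between genotypes with CDDO-Im, 7 of them members.

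C6 read 11.35, 11.38 and 10.86 on Nrf2 null CDDO-Im arrays and 10.19, 9.05 and 9.88 on wild type CDDO-Im arrays. Under vehicle it read 10.66, 10.93 and 10.85 in Nrf2 null and 9.51, 9.60 and 10.22 in wild type livers. The genotypes did not overlap under either treatment. The difference was 1.49 ± 0.27 with CDDO-Im (adjusted p = 0.0154, 2.81-fold higher) and 1.04 ± 0.27 under vehicle (adjusted p = 0.128), and the vehicle difference was called without wild type vehicle replicate 3. C9 read 12.97, 13.01 and 12.56 on Nrf2 null and 12.25, 12.07 and 12.13 on wild type CDDO-Im arrays, a difference of 0.70 ± 0.12 (adjusted p = 0.00996) that is close to the one under vehicle.

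C6 and C9 lie on chromosome 15 with 30 annotated genes between them, of which 8 were measured. Those 8 differed between the genotypes by −0.27 to 0.09 under vehicle and by −0.17 to 0.12 with CDDO-Im, and none was called. Several had low signals, with means of 3.74 for 5430437J10Rik, 4.24 for Prkaa1, 5.83 for Ptger4 and 5.90 for Mroh2b. A difference in these could be missed. Of the 4 members on chromosome 2, where Nfe2l2 lies, none was called for genotype under vehicle. Hc differed by 0.92 ± 0.44 (adjusted p = 0.402), C8g by −0.27 (adjusted p = 0.310), Serping1 by −0.13 (adjusted p = 0.531) and F2 by 0.03 (adjusted p = 0.926).

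For the other members called with CDDO-Im, all wild type CDDO-Im arrays lay below the wild type vehicle arrays, as for 16 of the 32 members. For C2 and F7 the Nrf2 null CDDO-Im arrays also all lay above the Nrf2 null vehicle arrays. Their CDDO-Im differences were 0.49 and 0.48 in Nrf2 null livers and −0.38 and −0.36 in wild type livers. C2 was higher in Nrf2 null livers by 0.76 ± 0.14 (adjusted p = 0.0160), C8b by 0.71 ± 0.12 (adjusted p = 0.0103), F7 by 0.71 ± 0.12 (adjusted p = 0.0139) and Serpinf2 by 0.66 ± 0.09 (adjusted p = 0.00338). Under vehicle the same genes differed by −0.11 for C2, 0.10 for C8b, −0.13 for F7 and 0.13 for Serpinf2, with adjusted p-values of 0.600 to 0.775. Serpinf2 kept its call under all 23 alternatives and C9 under 22. C9 lost its call without wild type CDDO-Im replicate 2 (adjusted p = 0.0540), and C8b without wild type CDDO-Im replicate 3 (adjusted p = 0.0562). F7 lost it without wild type CDDO-Im replicate 2 or 3 or Nrf2 null CDDO-Im replicate 3, at up to 0.0656. C2 lost it without wild type or Nrf2 null CDDO-Im replicate 2 or 3, at up to 0.0777, and C6 without Nrf2 null CDDO-Im replicate 1 or 2, at up to 0.0695.

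**Figure D4:**
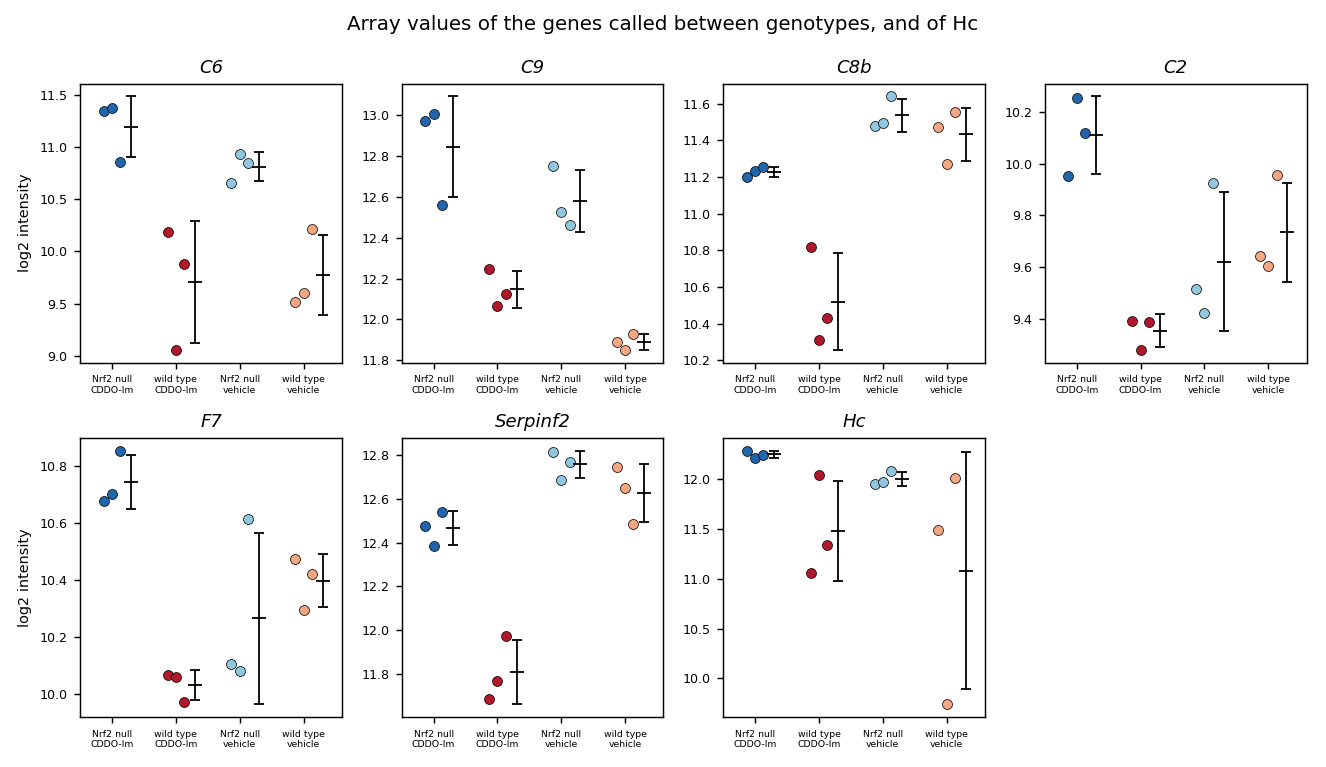
Log2 signal on each array (points) for the 6 members called between genotypes under CDDO-Im and for Hc, with the mean and SD of each group of 3 arrays, Nrf2 null left of wild type within each treatment. C6 and C9 are higher in Nrf2 null livers under both treatments, and C2, C8b, F7 and Serpinf2 do not overlap between genotypes with CDDO-Im and overlap under vehicle.

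The difference between the CDDO-Im effects of the genotypes, taken as the effect in Nrf2 null livers minus that in wild type livers, was called for none of the 32 members by limma, and for 0.137% of all genes, 0.0110% higher and 0.126% lower. At an unadjusted p under 0.05 there were 15 members, against 7.10% of all genes. The sign was positive for 30 members, against 48.4% of all genes, with a median of 0.31 against −0.01 over all genes. Array weights gave 3 calls (C2, C8a and F7), and leaving out Nrf2 null vehicle replicate 3 gave 2 (C2 and F7).

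Klkb1 had the largest such difference, 0.94 ± 0.35 (adjusted p = 0.599). Its wild type vehicle arrays read 9.83, 9.59 and 10.65, the last from replicate 3, which carried acinar transcripts. The size and rank of the Klkb1 value therefore lean on that array. C2 followed with 0.87 ± 0.19 (adjusted p = 0.188) and F7 with 0.84 ± 0.18 (adjusted p = 0.167). C8a and C8b had 0.60 each (adjusted p = 0.259 and 0.363) and Serpinf2 had 0.53 (adjusted p = 0.259). The 2 members with a negative value were Pros1, at −0.34 ± 0.32, and Hc, at −0.15 ± 0.62. For C4bp the value was 0.04, with a 95% interval of −0.27 to 0.36, and for C9 it was 0.01, with an interval of −0.35 to 0.37.

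By the sign of both effects, which share no arrays, 15 members were lower with CDDO-Im in both genotypes and 9 were higher in both, against 31.3% and 31.7% of all genes. The remaining 8 were higher in Nrf2 null and lower in wild type livers (Masp2, C2, Cfi, C6, F7, F10, F12 and F5), against 16.8% of all genes, and 0 had the opposite pair of signs, against 20.2%. Signs of small differences are uncertain. In Nrf2 null livers Masp2, Cfi, F10 and F12 differed by 0.05 to 0.08, with standard errors of 0.06 to 0.10. The other F10 probe sets were lower in both genotypes (−0.12 and −0.17 in Nrf2 null, −0.43 and −0.64 in wild type livers). The other F5 probe set was higher in both (0.40 in Nrf2 null, 0.16 in wild type livers). Masp1 and Kng1 counted as lower in both genotypes, but in Nrf2 null livers their other probe sets mostly had positive differences. These were 0.24, 0.28, 0.14 and −0.36 for Masp1 and 0.06 for Kng1.

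**Figure D5:**
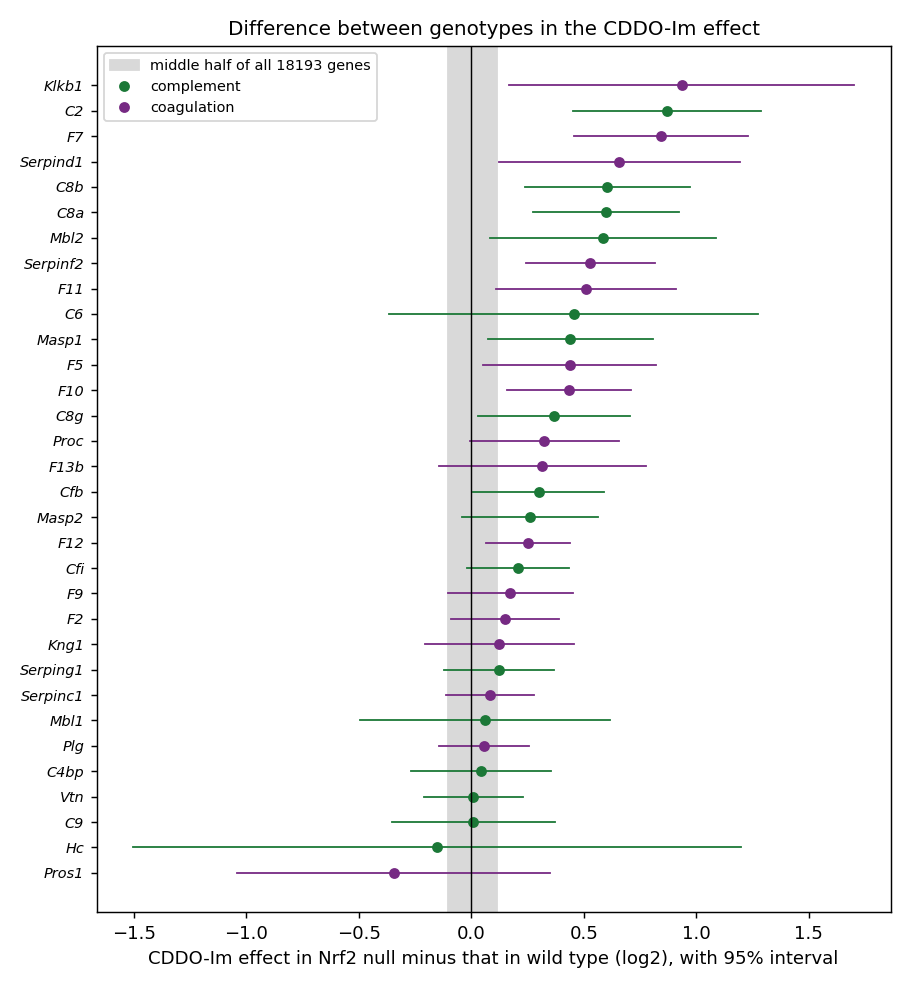
CDDO-Im effect in Nrf2 null livers minus that in wild type livers on the log2 scale for each of the 32 members, ordered by size, with the 95% interval of the limma model and a grey band for the middle 50% of all 18193 genes. Points of 30 members lie right of 0, from 0.01 to 0.94, and those of Hc and Pros1 lie left.

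Other genes of the cascades were set beside the members. All 3 fibrinogen chains had negative CDDO-Im differences in both genotypes, and 2 of 3 passed in each. Fgb differed by −0.46 in Nrf2 null (adjusted p = 0.0416) and −0.67 in wild type livers (adjusted p = 0.0148). Fgg differed by −0.40 in Nrf2 null (adjusted p = 0.0187) and −0.54 in wild type livers (adjusted p = 0.00678). Fga differed by −0.33 in Nrf2 null (adjusted p = 0.115) and −0.44 in wild type livers (adjusted p = 0.0705). Of 22 other coagulation genes measured (of 29), Serpina10, the protein Z-dependent inhibitor of factor X, alone was called, lower by 1.18 in Nrf2 null (adjusted p = 0.0205) and by 1.25 in wild type livers (adjusted p = 0.0269). Of 14 other complement genes measured (of 21) and 12 receptors and membrane regulators (of 14), limma called none for CDDO-Im. At an unadjusted p under 0.05 the other complement genes gave 7 in Nrf2 null and 3 in wild type livers, and the receptors gave 2 in Nrf2 null and 3 in wild type livers, against 19.4% of all genes in Nrf2 null and 13.6% in wild type livers. Between genotypes, the factor H-related gene Cfhr2 was lower in Nrf2 null livers under vehicle (−1.15, adjusted p = 0.0282), and the membrane inhibitor of the pore Cd59a, on chromosome 2 like Nfe2l2, was lower under CDDO-Im (−1.30, adjusted p = 0.000305) and vehicle (−1.45, adjusted p = 0.000426). Of 9 vitamin K cycle and secretion genes, the cargo receptor for factors V and VIII, Lman1, fell by 0.69 with CDDO-Im in Nrf2 null livers (adjusted p = 0.0190). Lman1 differed by −0.44 in wild type livers (adjusted p = 0.164), and Nqo1 behaved as given above.

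Of 22 transcription factors and signalling genes measured (of 26) that are known to act on such genes or in hepatocytes, 6 were called for CDDO-Im in Nrf2 null livers (27.3%, against 5.90% of all genes) and 2 in wild type livers (9.09%, against 1.82%). This list was chosen with earlier results of these data known, so its shares only describe the genes listed and are not a test of regulators. Hnf4a passed in no comparison, with CDDO-Im differences of 0.27 in Nrf2 null (adjusted p = 0.269) and 0.16 in wild type livers (adjusted p = 0.679). Of the C/EBP family, Cebpa rose by 0.59 (adjusted p = 0.0405) and Cebpd fell by 1.14 (adjusted p = 0.0171) in Nrf2 null livers, and Cebpb differed by −0.27 (adjusted p = 0.470). The 3 genes differed by 0.06 (Cebpa), −0.10 (Cebpd) and 0.02 (Cebpb) in wild type livers. The nuclear receptors Ppara (1.22, adjusted p = 0.0106), Nr1i3 (0.77, adjusted p = 0.0264) and Nr3c1, the glucocorticoid receptor (0.58, adjusted p = 0.0329), also rose in Nrf2 null livers, and differed by −0.14, 0.73 and −0.11 in wild type livers. Ppara was lower in Nrf2 null than in wild type livers under vehicle (−1.13, adjusted p = 0.0414). Foxa3, another hepatocyte factor, fell by 0.75 in wild type livers (adjusted p = 0.00670) and was higher in Nrf2 null than in wild type livers under CDDO-Im (1.03, adjusted p = 0.000594) and vehicle (0.70, adjusted p = 0.0288). Il6st, the signalling subunit of the IL-6 receptor, differed by −0.78 in Nrf2 null (adjusted p = 0.112) and fell by 1.31 in wild type livers (adjusted p = 0.0282).

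Socs3, a feedback inhibitor induced by STAT3, separated 1 vehicle array from the rest. It read 8.60, 7.06 and 6.45 on Nrf2 null CDDO-Im arrays and 11.11, 11.07 and 10.56 on Nrf2 null vehicle arrays. Wild type livers read 5.88, 6.15 and 6.39 with CDDO-Im and 10.07, 10.59 and 6.56 with vehicle. Wild type vehicle replicate 3 was thus near the CDDO-Im arrays, away from the other 5 vehicle arrays. Socs3 fell by 3.55 in Nrf2 null livers (adjusted p = 0.0320) and differed by −2.93 in wild type livers (adjusted p = 0.112). Replicate 3 was also the array with the most acinar signal, and the wild type vehicle array nearest to the CDDO-Im arrays for Pros1 and for Masp1, C4bp, Cfb, C8a, F11, Kng1 and Serpinf2, that is for all members called in wild type livers except C8b. The share of all genes with replicate 3 nearest was not counted, so this is not read as a trait of these members. Over all probe sets its mean correlation with its group was the lowest, 0.9856 against 0.9902 to 0.9943 on the other arrays. Without replicate 3 the count of members that CDDO-Im changed in wild type livers was 11, against 8 with it, while the count over all genes was 1385, against 332 with it. The part of its Socs3 level or acinar signal in these values was not tested.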

How the data were processed

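Liver RNA of 12 Affymetrix arrays was analysed, 3 in each of 4 groups taken from the labels. The deposited values are log2 signals made with RMA, per the submitters' processing notes; version, genome build and probe annotation are not given in the sources used here, and scanner files were not used here. Array medians were 5.77 to 5.83. Of 45101 probe sets, 64 controls were left out, 34945 named 1 gene, 932 several and 9160 none; symbols were looked up by Entrez ID in RefSeq (34741 matched, 0 changed). The brightest probe set stood for each of 18193 genes.

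limma 3.58.1 (R 4.3.3) was fitted with 1 mean per group over 12 arrays (8 residual degrees of freedom) without a block, with Benjamini-Hochberg adjustment over all 18193 genes, two-sided, called at 0.05. The number of arrays limits the precision. Errors are SDs over arrays or SEs of the fit, and intervals are 95% and not adjusted for the number of genes. The fitting code was tested on simulated data. The 23 alternative settings changed normalization, filter, probe set, model, threshold or arrays. All members could be named, and genes of the other lists where called or among the 3 smallest adjusted p of their list; members, lists and markers were chosen with earlier results of these data known. Promoters were RefSeq windows of GRCm38.p6; as the arrays' build is not given, no coordinates were joined to the signals. Same-numbered arrays had correlations of their deviations of −0.30 to 0.28, so replicate numbers were not used as pairs.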

Additional observations from a re-analysis of the deposited data

Results flagged for a closer look

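C2 and F7 had every CDDO-Im array above every vehicle array in Nrf2 null livers and every CDDO-Im array below every vehicle array in wild type livers. The difference between the effects, Nrf2 null minus wild type, was 0.87 for C2 (limma adjusted p = 0.188) and 0.84 for F7 (adjusted p = 0.167), so neither passed the test of the difference. Arrays on opposite sides in this way were found for 82 of all 18193 genes (0.451%).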

How the results depend on the processing

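No result changed sign together with its call under the 23 alternatives. Leaving out 1 array at a time gave 4 to 11 members called for CDDO-Im in wild type livers, the low end without wild type vehicle replicate 1 or 2 or wild type CDDO-Im replicate 3 (5 without wild type CDDO-Im replicate 1) and the high end without wild type vehicle replicate 3. Over all genes the calls were 104, 117, 156 and 212 without those 4 arrays in that order, 1385 without wild type vehicle replicate 3, and 332 with all arrays. It gave 2 to 12 in Nrf2 null livers, 2 without Nrf2 null CDDO-Im replicate 2 or 3, 3 without Nrf2 null vehicle replicate 1 or 2, and 12 without wild type vehicle replicate 3. Over all genes there were 278 and 97, 249 and 348, and 1615 calls in the same order, against 1074 with all arrays, so the members' counts went down and up with those of all genes. It gave 0 to 2 for genotype under vehicle, 2 without wild type or Nrf2 null vehicle replicate 3 (219 and 110 of all genes, against 71), and 3 to 8 for genotype under CDDO-Im, 3 without wild type CDDO-Im replicate 2 or 3 (151 and 162 of all genes, against 263). For the difference between effects it gave 0 to 2, with the 2 calls without Nrf2 null vehicle replicate 3 (27 of all genes, against 25). Medians over the members ran from −0.24 to −0.17 for CDDO-Im in wild type livers, −0.012 to 0.079 in Nrf2 null livers, −0.10 to 0.028 for genotype under vehicle, 0.20 to 0.26 under CDDO-Im, and 0.24 to 0.36 for the difference between effects.

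Array weights gave 17 calls for CDDO-Im in wild type livers (1 higher, 16 lower), 5 for genotype under vehicle (2 higher, 3 lower) and 3 for the difference between effects, while the calls over all genes were 2023 (against 332), 1477 (against 71) and 89 (against 25). With only the arrays compared there were 4 for CDDO-Im in wild type livers and 0 for genotype under vehicle, with 110 and 18 over all genes. An adjusted p under 0.01 left 4 in wild type livers, 2 in Nrf2 null livers, 0 for genotype under vehicle and 2 under CDDO-Im. Over all genes it left 109, 97, 16 and 123 in that order. Quantile normalization again gave 0 for genotype under vehicle (85 over all genes, against 71) and a median difference between effects of 0.24. Without both arrays that carried acinar transcripts there were 0 for genotype under vehicle and 11 for CDDO-Im in wild type livers (117 and 1293 over all genes). The scalings moved the median of all genes by up to 0.028. With the replicate block the counts were 8 for CDDO-Im in wild type and 11 in Nrf2 null livers, 1 and 7 for genotype under vehicle and CDDO-Im, and 0 for the difference between effects. Over all genes the block gave 323, 1000, 80, 231 and 20 in that order. The causes of these changes were not tested. Of the single values of members over all alternatives, 3475 kept their side of the threshold, 106 lost a call and 67 gained one. The number of arrays, 3 a group, limits which differences pass.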
